A study of Sus scrofa with 9 samples.

Results

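mTORC1 is a protein kinase complex that couples the amino acid and insulin supply of a cell to protein synthesis, and 10 genes of this complex and of its amino acid sensing branch were chosen by name for description in pig muscle. A gene entered through every array probe set whose only symbol in the platform's probe-to-gene table was that of the gene, and its probe set with the highest mean gave its main value. This selected 9 probe sets of 8 genes, MTOR, RPS6KB1, RHEB, RRAGC, RRAGD, SESN1, SESN2 and DEPTOR, among 27558 probe sets and 12361 named genes in all. RPTOR and EIF4EBP1 had no probe set under their symbol alone and were not analysed here. The rule itself used no measured value, but the genes were chosen with earlier results of these data known.

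A whole-transcript array per pig measured the RNA of the longissimus dorsi, a large muscle along the spine, in 9 male pigs at the finishing stage. Pigs 1, 2 and 3 had eaten a lysine-deficient diet, pigs 9, 10 and 11 a lysine-excess diet and pigs 5, 6 and 7 a lysine-adequate diet, each for 5 weeks from a body weight of about 95 kg. The replicates are separate pigs, and the sources used here give neither breed nor age nor the lysine content of the diets. The comparisons ask whether transcripts of the mTORC1 pathway differ with the lysine supply, lysine being an essential amino acid that commonly limits the growth of pigs on grain diets.

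When amino acids are plentiful, a heterodimer of Rag GTPases (RRAGA or RRAGB with RRAGC or RRAGD) recruits mTORC1 to the lysosome surface, where the small GTPase RHEB switches the kinase on. Sestrins, of which SESN2 is known to bind leucine, restrain this step through the GATOR complexes, and DEPTOR is a subunit that inhibits the kinase. The active kinase phosphorylates S6 kinase (RPS6KB1) and the 4E-BP proteins and so raises translation. Most of this control acts on proteins, by phosphorylation and binding, which an array of transcripts does not measure.

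All values are the authors' processed values, taken here as log2, so that a difference of 1 stands for a 2-fold change. The array medians ran from 5.01 to 5.21. By correlation, excess pig 11 stood apart from the other pigs. This array correlated at 0.904 to 0.956 with the remaining 8, which correlated with each other at 0.977 to 0.992. Among the 6834 named genes at or above the median level of all probe sets, excess pig 11 held the lowest of the 9 values for 60.2% of genes, and its values deviated from the mean of excess pigs 9 and 10 by a median of -0.34. The differences of the 8 genes and the list medians that involve the excess diet are therefore given with and without this pig. The test used below estimates the spread from all 9 arrays, so this pig also enters the errors of deficient minus adequate. Without it the SE of that difference was 0.15 instead of 0.22 for MTOR and 0.15 instead of 0.25 for RRAGD, but 0.08 either way for SESN1. Of 8 muscle markers chosen to check the tissue, 4 were measured, ACTA1, MYH7, MYLPF and TNNC2, and all 4 lay between 12.34 and 13.28 in every pig, near the top of the array range of 14.30. In a bulk tissue sample, fewer cells of a type and less RNA per cell cannot be told apart.

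No difference of the 8 genes between diets passed the test, in any of the 3 comparisons (0 of 24 differences at an adjusted p of 0.05, limma with Benjamini-Hochberg adjustment over all 27558 probe sets). The smallest adjusted p among them was 1.00 for deficient against adequate pigs, 0.757 for excess against adequate pigs and 0.872 for deficient against excess pigs. The same share, 0.0%, of all probe sets passed in each comparison, and the test among all 3 diets called 0 probe sets (0.0%), with 2.54% below an unadjusted p of 0.05. Without adjustment, 1 of the 24 differences, that of RHEB between deficient and excess pigs, had a p below 0.05. Of all probe sets, 1.85% (511) lay below that unadjusted limit between deficient and adequate pigs, and 976 probe sets did without excess pig 11. The share was 3.56% (981) between excess and adequate pigs and 4.08% (1124) between deficient and excess pigs.

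The 95% intervals nevertheless give a range of sizes for each difference. The 95% interval of 23 of the 24 differences lay within a 2-fold change in either direction. The interval of RRAGD between deficient and excess pigs reached just past it, from 0.90-fold to 2.00-fold. The intervals cover the spread between the 3 pigs of each diet and are not limits of detection. The plot of values by pig shows how the pigs of each diet intermingle for most genes.

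**Figure D1:**
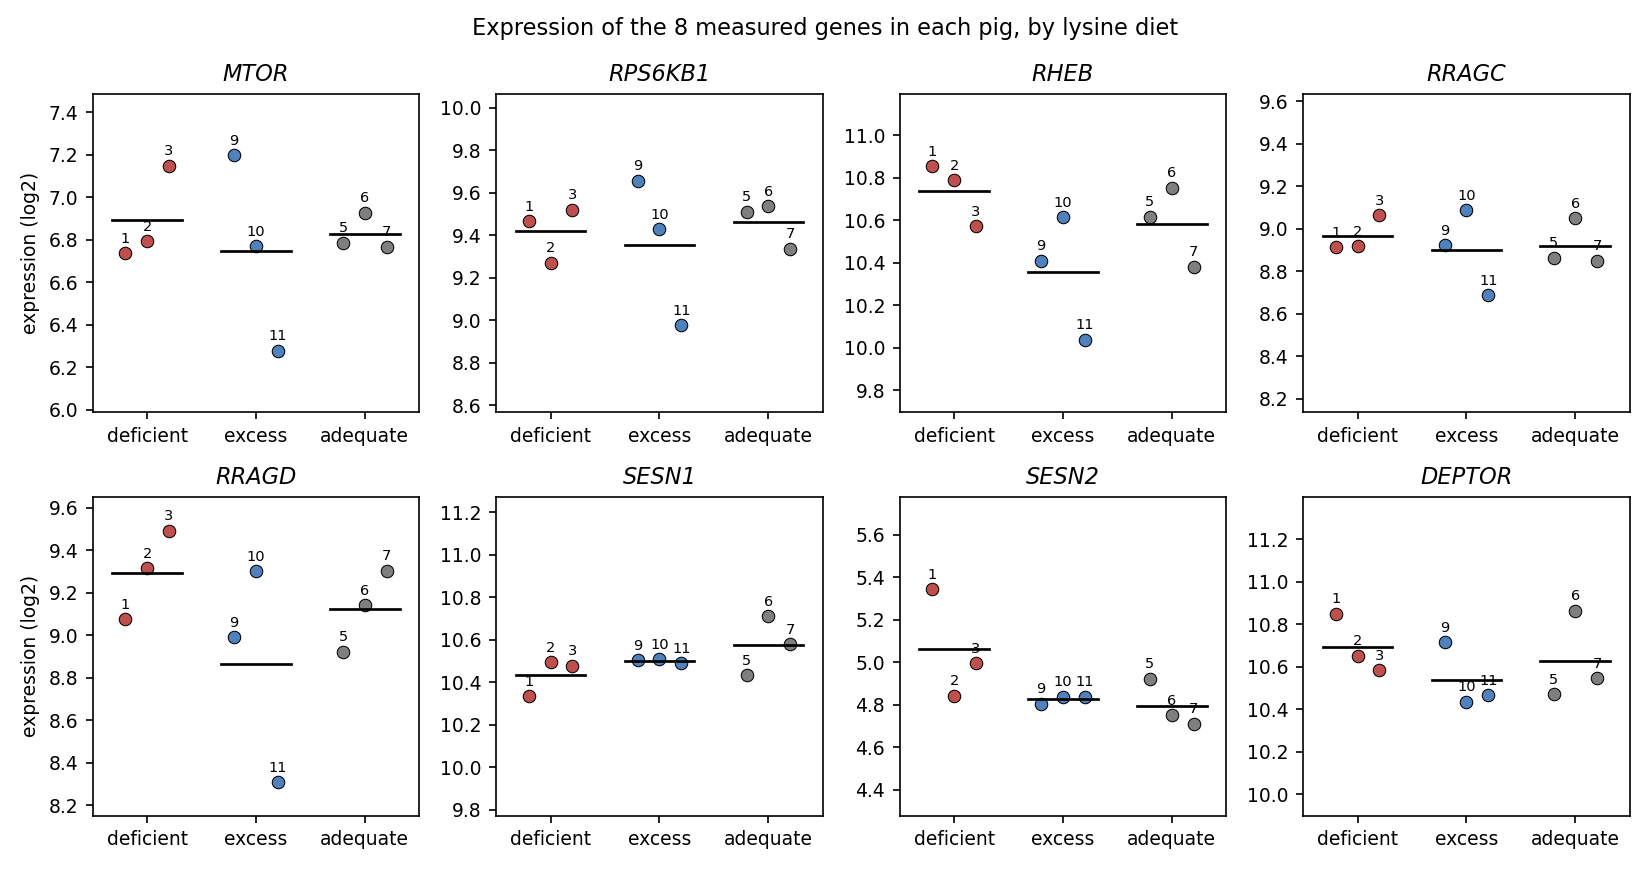
Expression of the 8 measured genes (y axis, log2, each panel spanning the same range of 1.5 units) in the 3 deficient, 3 excess and 3 adequate pigs. Points are single pigs with their numbers, and bars are diet means; excess pig 11 is the lowest point for MTOR, RPS6KB1, RHEB, RRAGC and RRAGD.

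MTOR encodes the kinase itself. Its values were 6.74, 6.79 and 7.15 in deficient pigs 1, 2 and 3, and 7.20, 6.77 and 6.28 in excess pigs 9, 10 and 11, against 6.79, 6.93 and 6.77 in adequate pigs 5, 6 and 7. Both the highest and the lowest of the 9 values were in excess pigs, whose spread (SD 0.46, n = 3) exceeded that of deficient pigs (SD 0.22) and of adequate pigs (SD 0.09). The log2 difference was 0.07 ± 0.22 (SE) for deficient minus adequate, -0.08 ± 0.22 for excess minus adequate and 0.14 ± 0.22 for deficient minus excess. The 95% interval of the deficient minus adequate difference ran from -0.45 to 0.58. Without excess pig 11 the excess minus adequate difference of MTOR was 0.16 and the deficient minus excess difference -0.09, so both turned sign with this pig.

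DEPTOR, the inhibitory subunit, was at 10.85, 10.65 and 10.58 in deficient pigs and at 10.72, 10.44 and 10.47 in excess pigs, against 10.47, 10.86 and 10.55 in adequate pigs. The 3 groups overlapped, with adequate pig 6 highest and excess pig 10 lowest. DEPTOR differed by 0.07 ± 0.13 for deficient minus adequate, by -0.09 ± 0.13 for excess minus adequate and by 0.16 ± 0.13 for deficient minus excess. The first of these was -0.01 without deficient pig 1 and also without adequate pig 5, and the second was 0.03 without adequate pig 6. The difference of DEPTOR without excess pig 11 was -0.05 for excess minus adequate and 0.12 for deficient minus excess.

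RHEB, the GTPase that activates mTORC1, had the smallest p of the 8 genes in the test among all diets (unadjusted p = 0.125, limma adjusted p = 0.932). Its values were 10.86, 10.79 and 10.57 in deficient pigs and 10.41, 10.62 and 10.04 in excess pigs, against 10.62, 10.75 and 10.38 in adequate pigs. Deficient pigs 1 and 2 were the highest of all 9 pigs and excess pig 11 the lowest, while deficient pig 3 lay below excess pig 10, so the diets overlapped. RHEB was 1.31-fold higher in deficient than in excess pigs (0.38 ± 0.16, interval 1.00-fold to 1.70-fold), with an unadjusted p of 0.0491 and a limma adjusted p of 0.872. Without excess pig 11 this log2 difference was 0.23 (unadjusted p = 0.145 in limma). RHEB differed by 0.16 ± 0.16 for deficient minus adequate and by -0.23 ± 0.16 for excess minus adequate, and without excess pig 11 the difference between excess and adequate pigs was -0.07.

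RRAGC and RRAGD are alternative subunits of the Rag heterodimer. RRAGC was at 8.91, 8.92 and 9.06 in deficient pigs and at 8.92, 9.09 and 8.69 in excess pigs, against 8.86, 9.05 and 8.85 in adequate pigs. The 3 diet means lay within 0.07 of each other on the log2 scale, and the interval for deficient against adequate pigs ran from 0.86-fold to 1.24-fold. RRAGC differed by 0.04 ± 0.11 for deficient minus adequate and by -0.02 ± 0.11 for excess minus adequate. It differed by 0.07 ± 0.11 for deficient minus excess. Without excess pig 11 the excess minus adequate difference was 0.08 and the deficient minus excess difference -0.04, so both turned sign.

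RRAGD had the widest range of the 8 genes, 1.18 on its main probe set, from 8.31 in excess pig 11 to 9.49 in deficient pig 3. Its main probe set was at 9.07, 9.32 and 9.49 in deficient pigs and at 8.99, 9.30 and 8.31 in excess pigs, against 8.92, 9.14 and 9.30 in adequate pigs. Excess pig 11 lay below every other pig, and excess pig 10 lay among the deficient and adequate pigs. RRAGD differed by 0.17 ± 0.25 for deficient minus adequate, by -0.26 ± 0.25 for excess minus adequate and by 0.43 ± 0.25 for deficient minus excess. Without excess pig 11 the last 2 were 0.02 and 0.15.

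The other RRAGD probe set was dimmer and flatter, at 5.53, 5.55 and 5.62 in deficient pigs and at 5.45, 5.47 and 5.49 in excess pigs, against 5.47, 5.44 and 5.54 in adequate pigs. On this probe set excess pig 11 was not the lowest pig but the highest of the excess group. The deficient pigs lay above all excess pigs, by a difference of 0.10 ± 0.06 (limma adjusted p = 0.872), as did 4.28% of all probe sets in that comparison, and the difference was 0.11 without excess pig 11. Excess minus adequate was -0.02 on this probe set, and -0.03 without that pig. The 2 probe sets of RRAGD had the same sign in all 3 comparisons but differed in size and in which pig stood apart.

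SESN1 was among the steadiest genes measured: its spread within diets (residual SD 0.09) was smaller than that of all but 7.84% of named genes at or above the median level. It lay at 10.33, 10.49 and 10.48 in deficient pigs and at 10.50, 10.51 and 10.49 in excess pigs, against 10.43, 10.71 and 10.58 in adequate pigs. The excess pigs differed by 0.02 from highest to lowest, with pig 11 at the level of the other 2. SESN1 differed by -0.14 ± 0.08 for deficient minus adequate (interval 0.79-fold to 1.04-fold), by -0.07 ± 0.08 for excess minus adequate and by -0.07 ± 0.08 for deficient minus excess. It was the single gene of the 8 with a negative deficient minus excess difference, and all 3 differences of SESN1 kept their sign in every alternative tried, though not their size. Excess minus adequate was -0.0067 without adequate pig 6, and deficient minus excess was -0.0147 without deficient pig 1. Both were -0.07 without excess pig 11.

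SESN2, the leucine-binding sestrin, is induced by the stress factor ATF4 in other cells. It was at 5.34, 4.84 and 4.99 in deficient pigs and at 4.80, 4.84 and 4.84 in excess pigs, against 4.92, 4.75 and 4.71 in adequate pigs. Deficient pig 1 held the highest value, and deficient pig 2 lay below adequate pig 5, so deficient and adequate pigs overlapped. SESN2 was higher in deficient than in adequate pigs by 0.27 ± 0.13 (interval 0.98-fold to 1.48-fold, unadjusted p = 0.0721, limma adjusted p = 1.00), the smallest unadjusted p of the 8 genes in that comparison. Without deficient pig 1 this difference was 0.12. It differed by 0.03 ± 0.13 for excess minus adequate and by 0.23 ± 0.13 for deficient minus excess. These were 0.03 and 0.24 without excess pig 11, and without deficient pig 1 the deficient minus excess difference of SESN2 was 0.091. With a mean of 4.89, SESN2 was dimmer than the median probe set (5.07), and because the background of the arrays is unknown here, its folds are not exact.

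RPS6KB1, which encodes the S6 kinase downstream of mTORC1, was at 9.47, 9.27 and 9.52 in deficient pigs and at 9.66, 9.43 and 8.98 in excess pigs, against 9.51, 9.54 and 9.34 in adequate pigs. As with MTOR, excess pig 9 was the highest and excess pig 11 the lowest of all pigs. RPS6KB1 differed by -0.04 ± 0.17 for deficient minus adequate, by -0.11 ± 0.17 for excess minus adequate and by 0.07 ± 0.17 for deficient minus excess. Without excess pig 11 the last 2 were 0.08 and -0.12, and so turned sign.

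**Figure D2:**
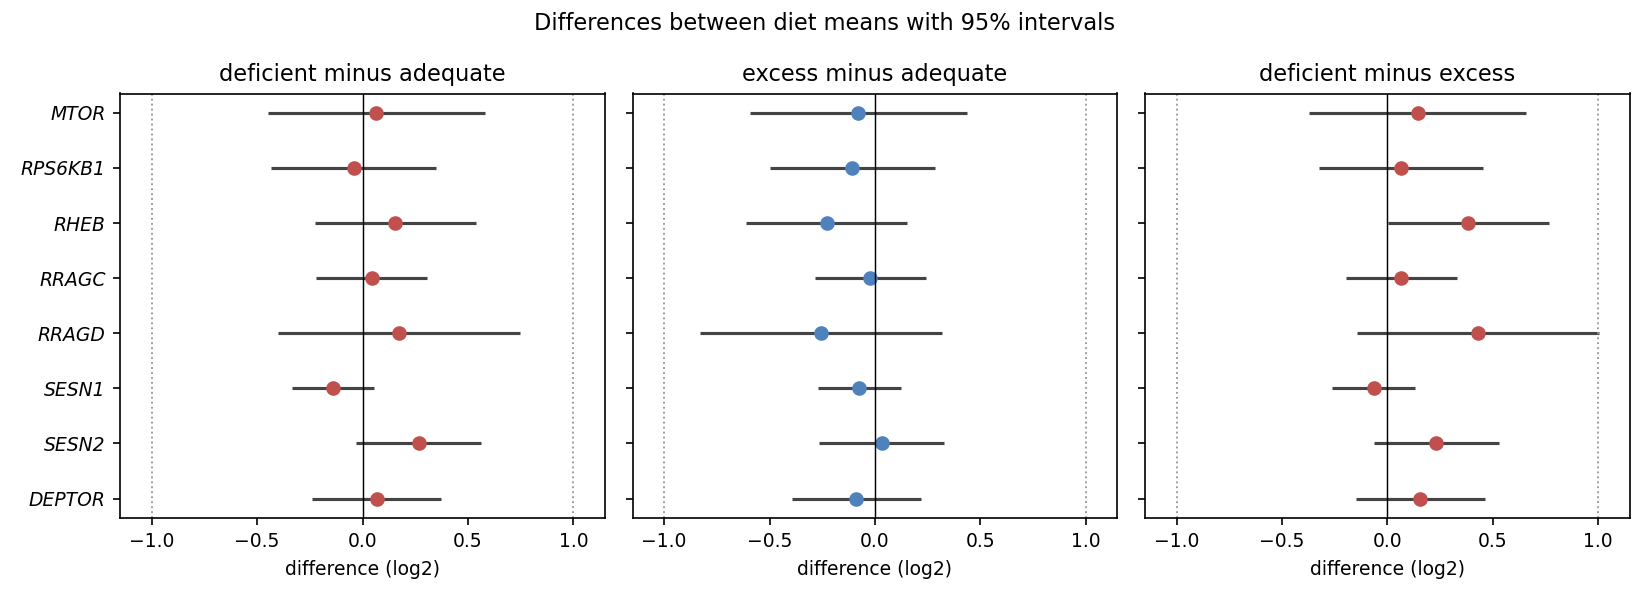
Log2 difference between diet means (points) with the 95% interval from limma (lines) for each of the 8 genes in the 3 comparisons, with dotted lines at a 2-fold change in each direction. Every interval spans 0 except that of RHEB for deficient minus excess, which starts at 0.0019, and the interval of RRAGD in that comparison alone reaches past the dotted line.

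The directions of the 8 genes are given beside those of the other named genes. In deficient against adequate pigs 6 were higher and 2 lower, with a median log2 difference of 0.07, beside a median of -0.03 over named genes at or above the median level, of which 42.2% were higher. Over all 12361 named genes, dim ones included, 51.7% were higher, with a median of 0.0041. In excess against adequate pigs 1 was higher and 7 lower (median -0.08), but 77.7% of those named genes were lower too, with a median of -0.14. Over all named genes 54.5% were lower, with a median of -0.02. In deficient against excess pigs 7 were higher and 1 lower (median 0.15), beside 70.0% higher and a median of 0.10, and 53.9% and 0.01 over all named genes. Of the 8 genes, SESN2 alone lay below the median level. The 3 comparisons share pigs and are not independent of each other.

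The diets did not overlap for 0 of 8 genes in deficient against adequate pigs, for 0 of 8 in excess against adequate pigs and for 1 of 8 in deficient against excess pigs. Over all probe sets the shares without overlap were 6.84%, 7.03% (3.2% higher and 3.84% lower) and 6.47%. The gene was SESN2, whose lowest deficient pig (4.842) and highest excess pig (4.839) were 0.003 apart, and it overlapped after quantile normalization was applied again. Leaving out 1 pig, which makes separation easier, gave 0 to 2 genes, 0 to 2 genes and 2 to 3 genes in the 3 comparisons.

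Excess pig 11 moved with the lower levels in the excess group. It held the lowest of all 9 values for 5 of the 8 genes, MTOR, RPS6KB1, RHEB, RRAGC and RRAGD, a share close to the 60.2% of named genes given above. Against the mean of excess pigs 9 and 10, it deviated by -0.84 for RRAGD, -0.71 for MTOR, -0.57 for RPS6KB1, -0.47 for RHEB and -0.32 for RRAGC. The deviations of DEPTOR, SESN1 and SESN2 were -0.11, -0.02 and 0.02. Without this pig 5 of the 8 genes were higher and 3 lower in excess than in adequate pigs, with a median difference of 0.02, and in deficient against excess pigs 4 were higher and 4 lower (median 0.04).

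**Figure D3:**
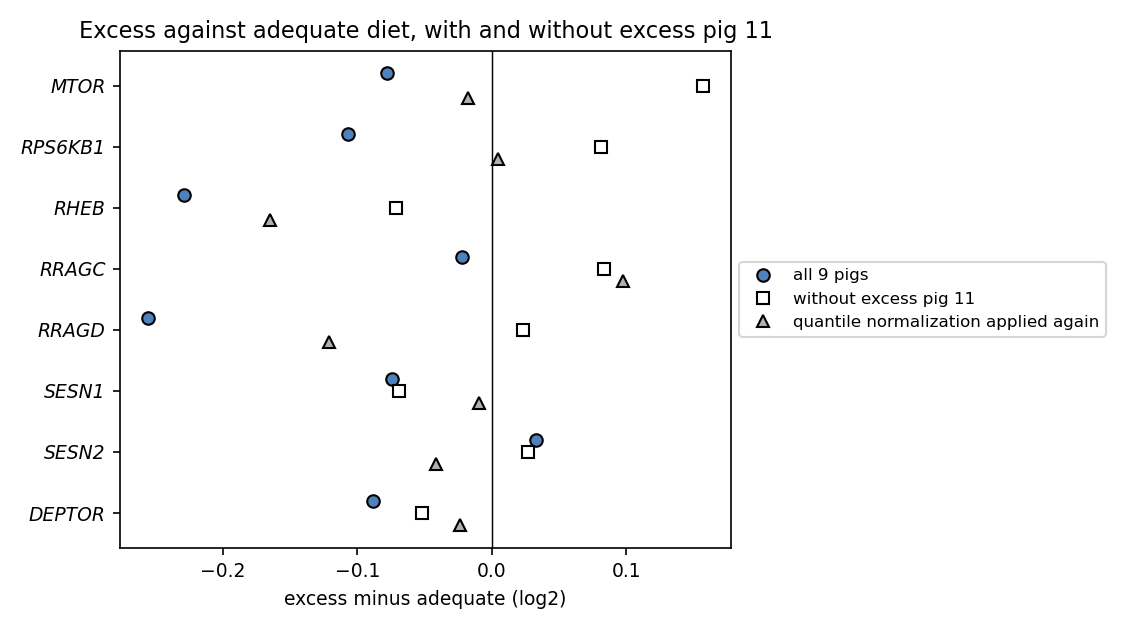
Excess minus adequate difference (x axis, log2) of each gene with all pigs (blue circles), without excess pig 11 (white squares) and after quantile normalization was applied again to all 9 arrays (grey triangles). MTOR, RPS6KB1, RRAGC and RRAGD change sign without pig 11, and RPS6KB1, RRAGC and SESN2 change sign after normalization.

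Across the 9 pigs, the members nearest to each other in pattern were MTOR and RPS6KB1, whose values, each centred on the mean of its gene, differed by a root mean square of 0.12 over the 9 arrays, where MTOR itself deviated from its mean by 0.25. Both were highest in excess pig 9 and lowest in excess pig 11. For RHEB, the 3 other named genes at or above the median level with the most similar pattern over the 9 arrays were NDUFA3, a subunit of respiratory complex I, HS6ST1, a heparan sulphate sulphotransferase, and UBE2N, a ubiquitin-conjugating enzyme. Their root mean square differences from RHEB were 0.07, 0.07 and 0.08, where RHEB itself deviated from its mean by 0.24. These are descriptions over 9 arrays that share excess pig 11.

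The wider pathway was described through 6 gene lists with 98 genes in all, of which 72 were measured. None of the 72 passed an adjusted p of 0.05 in any comparison, higher or lower, while an unadjusted p below 0.05 was found for 7 genes between deficient and adequate pigs, 2 between excess and adequate pigs and 8 between deficient and excess pigs. In deficient against adequate pigs 27 were higher and 45 lower, with a median difference of -0.04, which was 0.0086 without deficient pig 1. Of named genes at or above the median level, 57.8% were lower in that comparison (median -0.03). In excess against adequate pigs 14 were higher and 58 lower (median -0.21), and the median was -0.03 without excess pig 11. Of those named genes 77.7% were lower (median -0.14), and 56.8% without that pig (median -0.02). In deficient against excess pigs 61 were higher and 11 lower (median 0.19), and the median was 0.05 without excess pig 11. Of those named genes 70.0% were higher (median 0.10). The counts of higher and lower genes in each list below are to be read beside these shares. The groups did not overlap for 12 of the 72 genes (16.7%) in deficient against adequate pigs, 7 (9.72%) in excess against adequate pigs and 9 (12.5%) in deficient against excess pigs, to be read beside the shares of all probe sets above. The lists were chosen with earlier results of these data known, so these shares are description only.

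**Figure D4:**
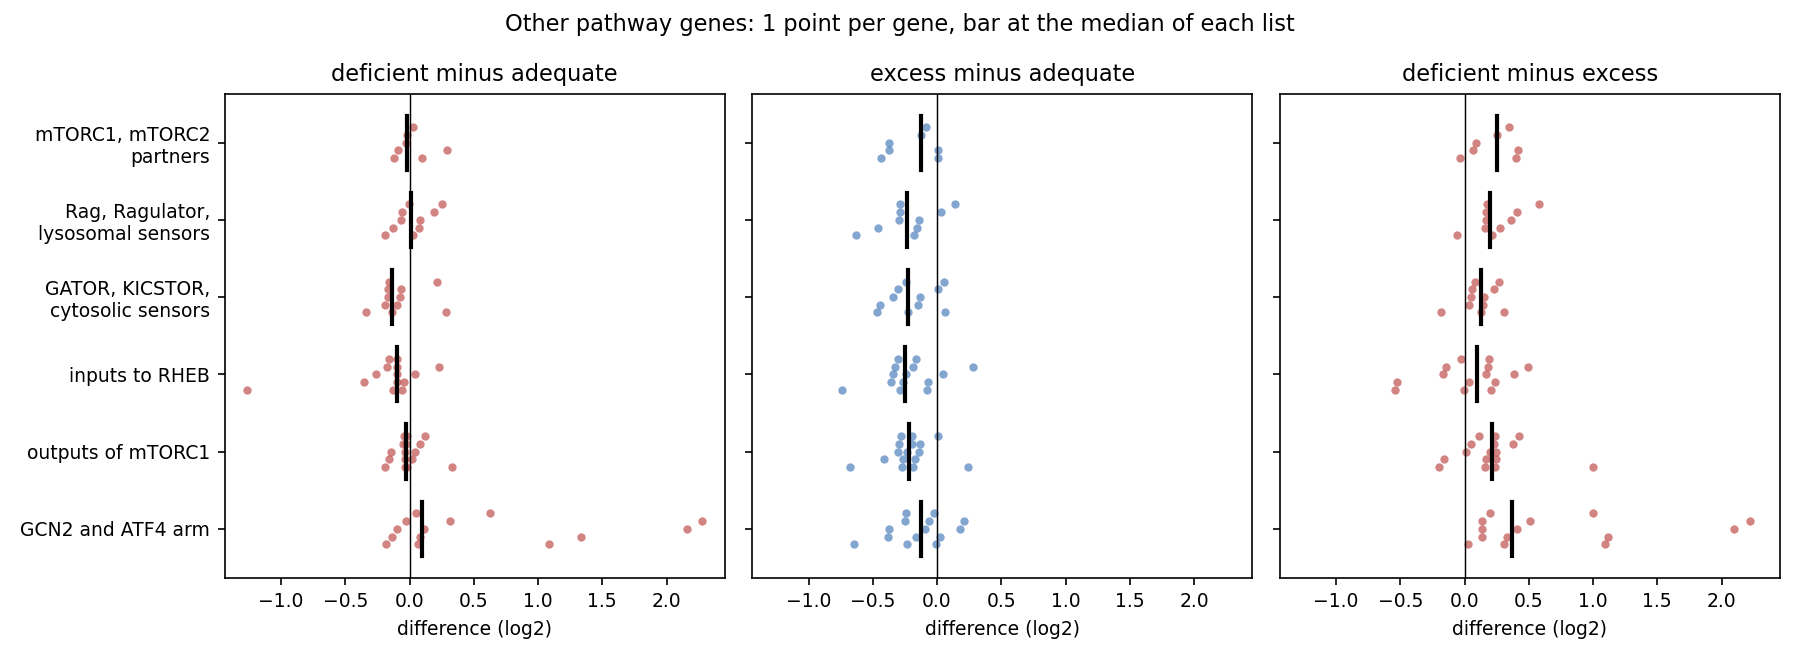
Log2 difference (x axis) of every measured gene of the 6 pathway lists (1 point per gene, bars at list medians) in the 3 comparisons. Outside the GCN2 and ATF4 arm, list medians lie between -0.13 and 0.01 for deficient minus adequate and between -0.25 and -0.12 for excess minus adequate.

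Of 7 measured partners of the mTORC1 and mTORC2 kinases, 3 were higher and 4 lower in deficient than in adequate pigs (median -0.02, and 0.0099 without deficient pig 2), and 2 were higher and 5 lower in excess than in adequate pigs (median -0.12, and 0.01 without excess pig 11). AKT1S1, also called PRAS40, an inhibitory subunit of mTORC1, was at 8.47, 8.64 and 7.98 in excess pigs, against 8.72, 8.85 and 8.64 in adequate pigs. The difference was -0.37 ± 0.16, and -0.18 without excess pig 11, which was the lowest pig. The excess and adequate pigs did not overlap, but only by a near tie, excess pig 10 at 8.6396 and adequate pig 7 at 8.6405. Without overlap and lower in that comparison were 3.84% of all probe sets.

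Of 10 measured genes for Rag GTPases, the Ragulator scaffold and lysosomal sensors, 5 were higher and 5 lower in deficient than in adequate pigs (median 0.01, and -0.022 without adequate pig 7), and 2 were higher and 8 lower in excess than in adequate pigs (median -0.23, and -0.08 without excess pig 11). RRAGA and RRAGB, the dimer partners of RRAGC and RRAGD, were named after their values were seen, as were SESN3, EIF4EBP2 and RPS6KB2 below, because they are the closest measured relatives or partners of the chosen genes. RRAGA was at 10.92, 10.96 and 10.84 in deficient pigs and at 10.75, 10.86 and 10.59 in excess pigs, against 10.80, 10.94 and 10.89 in adequate pigs. It differed by 0.03 ± 0.08 for deficient minus adequate and by -0.14 ± 0.08 for excess minus adequate, or -0.07 without excess pig 11. RRAGB differed by 0.19 ± 0.22 and 0.03 ± 0.22 in the same comparisons, and excess minus adequate was 0.18 without excess pig 11.

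Of 11 measured genes of GATOR1, GATOR2, KICSTOR and the cytosolic amino acid sensors, which relay the amino acid supply to the Rag proteins, 2 were higher and 9 lower in deficient than in adequate pigs (median -0.13). CASTOR1, the arginine sensor, was at 5.40, 5.43 and 5.49 in deficient pigs, against 5.72, 5.64 and 5.54 in adequate pigs, without overlap and with a difference of -0.19 ± 0.10 (limma adjusted p = 1.00). Of all probe sets, 3.07% were lower without overlap in that comparison. CASTOR1 was low in excess pigs too, at 5.56, 5.45 and 5.18. Its excess minus adequate difference was -0.24 ± 0.10, with overlap, and -0.13 without excess pig 11. In excess against adequate pigs 3 genes of this list were higher and 8 lower (median -0.22, and -0.12 without excess pig 11). SEC13, a GATOR2 subunit that also coats transport vesicles, differed by -0.34 ± 0.16 there, and by -0.16 without excess pig 11. SESN3, the third sestrin, differed by -0.17 ± 0.14 for deficient minus adequate and by 0.01 ± 0.14 for excess minus adequate, or 0.11 without excess pig 11.

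Of 14 measured inputs to RHEB, which include the TSC complex that inhibits it, the kinases AKT and AMPK and stress-induced repressors, 2 were higher and 12 lower in deficient than in adequate pigs (median -0.10). DDIT4L, or REDD2, a repressor of mTORC1 known from muscle, was at 10.11, 10.10 and 10.39 in deficient pigs, against 10.40, 10.67 and 10.58 in adequate pigs. All 3 deficient pigs lay below the adequate pigs, although pig 3 at 10.39 lay next to adequate pig 5 at 10.40, and the difference was -0.35 ± 0.10 (unadjusted p = 0.00975, limma adjusted p = 1.00). The excess pigs, at 10.39, 10.38 and 10.33, also lay below the adequate pigs in DDIT4L. That difference was -0.19 ± 0.10, and -0.17 without excess pig 11. DDIT4, or REDD1, a relative of DDIT4L, was at 6.28, 5.84 and 7.00 in deficient pigs, against 7.02, 8.79 and 7.09 in adequate pigs. The high value of adequate pig 6 weighed on its difference of -1.26 ± 0.75, which was -0.68 without that pig. In the same direction lay 3.07% of all probe sets without overlap.

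In excess against adequate pigs 2 of these 14 inputs were higher and 12 lower (median -0.25, and -0.06 without excess pig 11). AKT2, the AKT kinase of insulin-stimulated glucose uptake, was at 10.21, 9.97 and 9.95 in excess pigs, against 10.23, 10.30 and 10.33 in adequate pigs. The difference was -0.24 ± 0.08 (unadjusted p = 0.0220, limma adjusted p = 0.757), and -0.19 without excess pig 11. Excess pigs 10 and 11 were alike in AKT2, and excess pig 9 lay next to adequate pig 5.

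Of 16 measured outputs of mTORC1, 5 were higher and 11 lower in deficient than in adequate pigs (median -0.03, and 0.0316 without deficient pig 1), and 2 were higher and 14 lower in excess than in adequate pigs (median -0.22, and -0.07 without excess pig 11). EIF4EBP2, a translation repressor of the family of EIF4EBP1, was at 10.74, 11.05 and 10.84 in deficient pigs and at 10.98, 10.86 and 10.75 in excess pigs, against 10.92, 11.04 and 11.15 in adequate pigs. It differed by -0.16 ± 0.11 for deficient minus adequate and by -0.17 ± 0.11 for excess minus adequate, with overlap in both, and the second was -0.12 without excess pig 11. RPS6KB2, the second S6 kinase gene, differed by -0.04 ± 0.13 for deficient minus adequate and by -0.27 ± 0.13 for excess minus adequate. With 1 pig left out the second of these ran from -0.37 to -0.12, the value nearest 0 being that without excess pig 11. MITF, a transcription factor related to the lysosomal regulator TFEB, was at 8.36, 8.52 and 8.54 in deficient pigs, against 8.73, 8.68 and 8.60 in excess pigs. This difference of -0.20 ± 0.11 had no overlap between the pigs, as had 2.19% of all probe sets in that direction. Leaving out excess pig 11 gave -0.24. The other MITF probe set differed by 0.09, and by -0.08 without that pig. MITF was 1 of 2 outputs lower in deficient than in excess pigs, beside 14 higher. The largest of these differences was that of GRB10, 1.00 ± 0.39 (unadjusted p = 0.0349, limma adjusted p = 0.872). GRB10 was at 9.25, 9.03 and 9.23 in deficient pigs, against 8.97, 8.34 and 7.19 in excess pigs 9, 10 and 11. Excess pig 11 was the lowest of all pigs and weighed on this difference, whose value without that pig is not given here.

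In deficient against excess pigs most measured genes of these 5 lists were higher. So were 70.0% of named genes at or above the median level (median 0.10). The counts were 6 of 7 for the partners (median 0.25), 9 of 10 for the Rag and lysosomal list (median 0.20), 10 of 11 for GATOR and the sensors (median 0.13), 8 of 14 for the inputs to RHEB (median 0.10) and 14 of 16 for the outputs (median 0.21). With excess pig 11 left out, these medians were 0.06 for the partners, 0.08 for the Rag and lysosomal list, -0.0023 for GATOR and the sensors, -0.09 for the inputs and 0.05 for the outputs. The median of those named genes was then -0.0056.

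The second way in which cells sense amino acids, through the kinase GCN2 and the factor ATF4, was measured through 14 genes. In deficient against adequate pigs 10 were higher and 4 lower (median 0.10), and 7 of them were higher without overlap, beside 3.77% of all probe sets. Because this list was chosen with earlier results of these data known, that count describes the list and is not a test of it. SESN2 is set beside this arm because ATF4 is known to induce it. Deficient pig 1, the highest pig for SESN2 at 5.34, was also the highest of the 9 for 5 of the 14 genes, among them PHGDH (6.89), PSAT1 (10.07) and ATF5 (9.21). Deficient pig 2 was the highest for 3, ASNS (9.53), PSPH (5.54) and ATF4 (13.05), deficient pig 3 for 2, excess pig 9 for 1 and adequate pig 5 for 3. The 3 of adequate pig 5 were CHAC1, DDIT3 and PPP1R15A, which with GCN1 were the 4 genes lower in deficient than in adequate pigs. Among named genes at or above the median level, the shares highest in deficient pigs 1, 2 and 3 were 7.99%, 6.8% and 18.2%. The shares were 15.8% for excess pig 9 and 13.2% for adequate pig 5. A link of SESN2 with this arm was not tested. Deficient minus adequate was -0.14 ± 0.56 for CHAC1, -0.18 ± 0.28 for DDIT3, -0.10 ± 0.28 for PPP1R15A and -0.03 ± 0.20 for GCN1. Deficient pig 2, with SESN2 at 4.84, as in excess pigs 10 and 11, had PHGDH at 6.76, against 4.92, 4.28 and 4.43 in excess pigs 9, 10 and 11. ATF4 itself differed by 0.05 ± 0.05 and ASNS by 1.08 ± 0.43 for deficient minus adequate. An adjusted p of 0.05 was reached by none of the 14 genes in limma, against 5 genes with an unadjusted p below 0.05. PHGDH passed with array quality weights (limma adjusted p = 0.0123), where it was the single probe set called. In excess against adequate pigs 3 of the 14 were higher and 11 lower (median -0.13, and 0.0032 without excess pig 11). In deficient against excess pigs all 14 were higher (median 0.37, and 0.22 without excess pig 11), and the smallest unadjusted p values were those of PHGDH, PSPH and PSAT1. Their differences were 2.22 ± 0.19, 0.41 ± 0.09 and 2.10 ± 0.50, and 2.16, 0.38 and 1.98 without excess pig 11. ATF5 and ASNS differed by 1.12 and 1.09, more than PSPH but with larger errors, and by 0.91 and 0.62 without that pig.

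Markers of other cell types were read beside these genes. All 6 measured fibroblast markers were lower in deficient than in adequate pigs (median -0.42), and in excess than in adequate pigs (median -0.38, and -0.30 without excess pig 11), and their summed linear level ran from 10500 to 11500 in deficient pigs and 9070 to 11600 in excess pigs, against 12100 to 15000 in adequate pigs. All 5 measured adipocyte markers were lower in excess than in adequate pigs (median -0.43, and -0.42 with 4 of 5 lower without excess pig 11), with summed levels of 281 to 315 in excess pigs, against 338 to 470 in adequate pigs. In deficient pigs their sum was 453 to 513, and all 5 were higher than in excess pigs, also without excess pig 11. The 4 endothelial, 3 smooth muscle and pericyte and 3 macrophage and leukocyte markers measured had summed levels whose ranges met or overlapped between the diets. The summed level of the 4 muscle markers was 28900 to 30300 in deficient pigs and 30400 to 32900 in excess pigs, against 30000 to 30600 in adequate pigs. The adipocyte marker LEP and the macrophage and leukocyte marker CD14 lay below the median level of all probe sets, so their detection is uncertain. No Schwann cell or satellite cell marker was measured. The part of these cell types in the differences above was not tested.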

How the data were processed

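The deposited table holds the authors' processed values, taken here as log2 because all lie between 3.10 and 14.30. Per the submitters' processing notes, the tools included Partek and GCOS 1.2, with no step named for either. How the arrays were background-corrected, summarized and normalized is not stated, so the log base and every fold rest on this reading. Of 27558 probe sets, 13323 had 1 gene symbol, 357 several and 13878 were unnamed here, and symbols were updated through Entrez IDs. No coordinates are given, because the build of the array was not stated, and no sequences of the genes were at hand. No further normalization was applied.

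In R 4.3.3, limma 3.58.1 (lmFit, eBayes) estimated 1 mean per diet from the 9 arrays together. Tests were two-sided, with Benjamini-Hochberg adjustment over all probe sets, and errors of differences are SE from this fit. The 3 arrays per diet limit the precision (median SE 0.13). On simulated data for deficient against adequate pigs with 27558 probe sets, the fit called 58 of 100 true changes of 2-fold, 93 of 100 of 4-fold and 7 unchanged probe sets. The simulated noise was normal, independent between arrays and equal in SD across the diets, with no array standing apart. These shares need not hold for the real arrays, where deficient minus adequate was 2.16 for PHGDH and 2.28 for PSAT1 without a call.

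The 10 genes and the gene lists were chosen with earlier results of these data known. Besides them, the text names per comparison up to 3 higher and 3 lower list genes with the smallest unadjusted p, among those at or above the median level whose diets did not overlap. ATF4 and ASNS were named for the crossing with SESN2. CHAC1, DDIT3, PPP1R15A, GCN1, GRB10 and WDR24 were named after their values were seen. Per gene the probe set with the highest mean was used. The alternatives were median centring, a further quantile normalization, a robust prior with an intensity trend, array quality weights, the 6 arrays of a comparison fitted alone, the dimmest 25 percent left out, probe sets with 1 symbol alone, other probe sets of a gene and each pig left out in turn.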

Additional observations from a re-analysis of the deposited data

How the results depend on the processing

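Of 387 values of the 24 differences under the alternatives, 0 passed the threshold and 25 turned sign, in 13 of the 24 differences. The cause was not tested. No paired analysis was possible because the pigs of different diets share no number in the labels. The array quality weights were 0.68, 0.19 and 0.22 for excess pigs 9, 10 and 11, against 0.90 to 2.46 for the other pigs. Leaving out excess pig 9 gave 4638 probe sets with an unadjusted limma p below 0.05 between excess and adequate pigs, against 981 with all pigs. Between deficient and excess pigs it gave 3969, against 1124. With array quality weights, MTOR was at 0.10 for excess minus adequate and -0.10 for deficient minus excess, RPS6KB1 at 0.0107 and -0.10, and for deficient minus excess RRAGB was at -0.10, EIF4EBP2 at -0.0066 and the GATOR and sensor list at a median of -0.0165. With quantile normalization applied again, RPS6KB1 was at 0.0047 and RRAGC at 0.10 for excess minus adequate, SESN2 at -0.0415 and RRAGB at -0.0091. For deficient minus excess it gave -0.032 for RPS6KB1, -0.0397 for RRAGC and -0.0436 for EIF4EBP2, and 0 members without overlap. With median centring, SESN2 was at -0.0244, RRAGB at -0.0251 and SESN3 at -0.047 for excess minus adequate. The other MITF probe set was at 0.0943 for deficient minus excess. The count of called probe sets was 1 with array quality weights for deficient against adequate pigs (PHGDH, limma adjusted p = 0.0123) and 1 with probe sets of 1 symbol alone for deficient against excess pigs (PHGDH, limma adjusted p = 0.0457).

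With each pig left out in turn, deficient minus adequate ran from -0.0618 to 0.14 for MTOR, -0.10 to 0.0328 for RPS6KB1, -0.0062 to 0.11 for RRAGC, -0.01 to 0.19 for DEPTOR, -0.0117 to 0.061 for RRAGA and -0.0835 to 0.0302 for RPS6KB2. Excess minus adequate ran from -0.30 to 0.16 for MTOR, -0.26 to 0.0814 for RPS6KB1, -0.12 to 0.083 for RRAGC, -0.47 to 0.023 for RRAGD, -0.0089 to 0.10 for SESN2, -0.18 to 0.0296 for DEPTOR, -0.24 to 0.18 for RRAGB and -0.13 to 0.11 for SESN3. Deficient minus excess ran from -0.0913 to 0.37 for MTOR, -0.12 to 0.22 for RPS6KB1, -0.0399 to 0.16 for RRAGC and -0.0767 to 0.0774 for EIF4EBP2. List medians for excess minus adequate ran from -0.32 to -0.0581 for the inputs to RHEB, -0.39 to -0.0811 for the Rag and lysosomal list and -0.31 to -0.0301 for all lists. For deficient minus excess they ran from -0.0875 to 0.18 for the inputs, 0.0817 to 0.36 for the Rag and lysosomal list, -0.0023 to 0.36 for the GATOR and sensor list and 0.0615 to 0.37 for the partners. The members without overlap numbered 0 to 2 for deficient against adequate, 0 to 2 for excess against adequate and 2 to 3 for deficient against excess.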
